A study of Mus musculus with 3 samples.

Results

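Genes of the glucocorticoid system were followed in hippocampal RNA of 10-month-old mice on a C57BL/6 background. The 7 genes were chosen by name: Nr3c1 and Nr3c2, which encode the glucocorticoid and mineralocorticoid receptors, and Sgk1, Tsc22d3, Zbtb16, Hif3a and Klf9, known as genes that glucocorticoids induce. All 7 were found once among the 54532 genes of the deposited table. The study sequenced 1 library each of wild type (WT) mice, of PS19 mice, and of PS19 mice labelled as having lost 1 Zbp1 allele (PS19 Zbp1+/-). The PS19 line, a model of tau pathology, expresses human tau from the mouse Prnp promoter, and Zbp1 encodes a sensor of Z-form nucleic acids. The labels do not say whether a library holds 1 animal or a pool, nor when in the day or after what handling tissue was taken.

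Corticosterone, the main glucocorticoid of mice, is released by the adrenal gland in a daily rhythm and in stress. In the hippocampus it meets a receptor of high affinity, Nr3c2, and one of lower affinity, Nr3c1. Bound receptors enter the nucleus and act at glucocorticoid response elements, paired and inverted half-sites in DNA, and induce genes in neurons, glia and vessels.

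With 1 library per genotype no difference below has a replicate check and no p-value is given. Each value describes these libraries, and the intervals hold the error of counting alone. The reads recovered numbered between 16400328 and 17109734 per library. The PS19 Zbp1+/- library stood apart: it held reads for 21408 genes, where WT held them for 24741 and PS19 for 25397. It held 0 reads of Xist and 711 of the Y-linked Ddx3y, whereas WT and PS19 held 11062 and 13350 reads of Xist and 0 of Ddx3y. Sex and genotype therefore cannot be told apart in its comparisons, and Tsc22d3 is X-linked. Zbp1, the targeted gene, had 5 reads in the WT library, 91 in PS19 and 0 in PS19 Zbp1+/-, which does not settle whether 1 allele was left. All 9 markers of hippocampal subfields, among them Wfs1, Fibcd1 and Prox1, had reads in every library, though their levels differed, as given with the other marker lists.

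Promoter sequences are shown first, for Sgk1 and Tsc22d3, the 2 genes that were lower by 2-fold or more in both comparisons of the PS19 Zbp1+/- library, because response elements define how the hormone reaches its genes. RefSeq promoter windows (GRCm38.p6, 250 bases before to 50 after a start site) were held for 5 of the 7 genes, Nr3c2, Sgk1, Tsc22d3, Hif3a and Klf9. Both strands were searched for the full palindrome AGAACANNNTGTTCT, for the looser GNACANNNTGTNC that overlaps it, and for the half-site AGAACA, which is 1 arm of the palindrome. The full palindrome was found in 3 of 32851 windows, or 0.00913%, and 1 of them belonged to Sgk1, beside windows of Acnat2 and Gm35041. It lay 189 bases before one of 6 Sgk1 start sites, on the plus strand of chromosome 10 from 21993701 to 21993715, within the window chr10:21993640-21993939. That window is given in full, with the palindrome in capitals. It held 3 half-sites, counting both arms of the palindrome, and the remaining one, tgttct near the window's start, is left in lower case.
Sgk1: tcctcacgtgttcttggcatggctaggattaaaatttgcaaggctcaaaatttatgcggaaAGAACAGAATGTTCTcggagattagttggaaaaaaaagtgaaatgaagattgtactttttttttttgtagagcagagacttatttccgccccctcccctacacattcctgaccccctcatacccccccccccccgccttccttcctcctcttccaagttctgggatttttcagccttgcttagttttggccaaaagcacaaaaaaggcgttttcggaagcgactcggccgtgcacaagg

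A single half-site, a far commoner run of letters held by 19% of all windows, was found before 2 other Sgk1 starts and before 1 of 3 Tsc22d3 starts. The looser palindrome was held by 0.475% of all windows and, among the windows of these genes, only by the Sgk1 window above. The stretches around the half-sites, in capitals, are chr10:21881959-21882024 and chr10:21992180-21992245 on the plus strand for Sgk1 and chrX:140600672-140600737 on the minus strand for Tsc22d3.
Sgk1, first start: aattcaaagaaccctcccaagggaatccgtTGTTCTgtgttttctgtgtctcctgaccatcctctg
Sgk1, inner start: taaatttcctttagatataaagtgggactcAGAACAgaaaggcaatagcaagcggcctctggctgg
Tsc22d3: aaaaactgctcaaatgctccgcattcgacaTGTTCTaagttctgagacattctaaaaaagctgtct
The windows of Nr3c2, Hif3a and Klf9 held none of these letters, and neither did those of Fkbp5 and Per1, further response genes taken up below. This says nothing of elements outside the windows. Gene-level values do not tell which start was used.

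Both receptor genes were expressed in every library and neither differed by 2-fold between any pair. Levels are given as FPKM, fragment counts divided by gene length and by a scaled library size, which can be compared between genes. Nr3c1 (ENSMUSG00000024431, protein-coding, GRCm38 chromosome 18, 39410545 to 39491301 on the minus strand) stood at an FPKM of 10.3 in the WT library, 11.8 in PS19 and 9.56 in PS19 Zbp1+/-, from 1315, 1516 and 1123 reads. PS19 was the highest library and the other two lay close together. Per library size, PS19 had 1.15 times the reads of WT (exact 95% interval 1.07 to 1.24), and PS19 Zbp1+/- had 0.809 times those of PS19 (0.748 to 0.875). For PS19 Zbp1+/- over WT the ratio was 0.931 (0.859 to 1.01), an interval that spans 1 under the deposited scaling only. Scaling by total reads moved the log2 difference between PS19 Zbp1+/- and PS19 from -0.28 to -0.45. Whether Nr3c1 differed between PS19 Zbp1+/- and WT is therefore not settled.

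Nr3c2 (ENSMUSG00000031618, chromosome 8, 76899442 to 77245012, plus strand) had the opposite order, with FPKM values of 22.4 in the WT library, 19.6 in PS19 and 28.5 in PS19 Zbp1+/-, from 2498, 2198 and 2923 reads. It was the only one of the 7 genes that was lowest in PS19. The read ratio was 0.878 for PS19 over WT (0.829 to 0.93), 1.45 for PS19 Zbp1+/- over PS19 (1.37 to 1.54) and 1.28 for PS19 Zbp1+/- over WT (1.21 to 1.35). Rescaling to TPM moved the log2 difference between PS19 and WT from -0.18 to -0.06, less than the counting half-width of 0.08. Whether Nr3c2 was lower in PS19 than in WT is therefore not settled. The difference between PS19 Zbp1+/- and PS19 moved from 0.52 to 0.25 after TPM and to 0.34 by total reads. Nr3c2 was more abundant per length than Nr3c1 in each library, by a ratio of 2.18 in the WT library, 1.66 in PS19 and 2.99 in PS19 Zbp1+/-. The summed FPKM of 8 neuron markers ran in the same order, 871, 760 and 1130, with the single gene Slc17a7 at 206, 172 and 371. In PS19 minus WT, 6 of the 8 lay below 0 and 2 above. In PS19 Zbp1+/- minus PS19, 6 lay above 0 and 2 below. The marker median in PS19 minus WT turned from -0.10 to 0.03 after rescaling to TPM. The part of neurons in the Nr3c2 values was not tested. In bulk tissue, fewer cells of a type and less RNA per cell cannot be told apart.

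**Figure D1:**
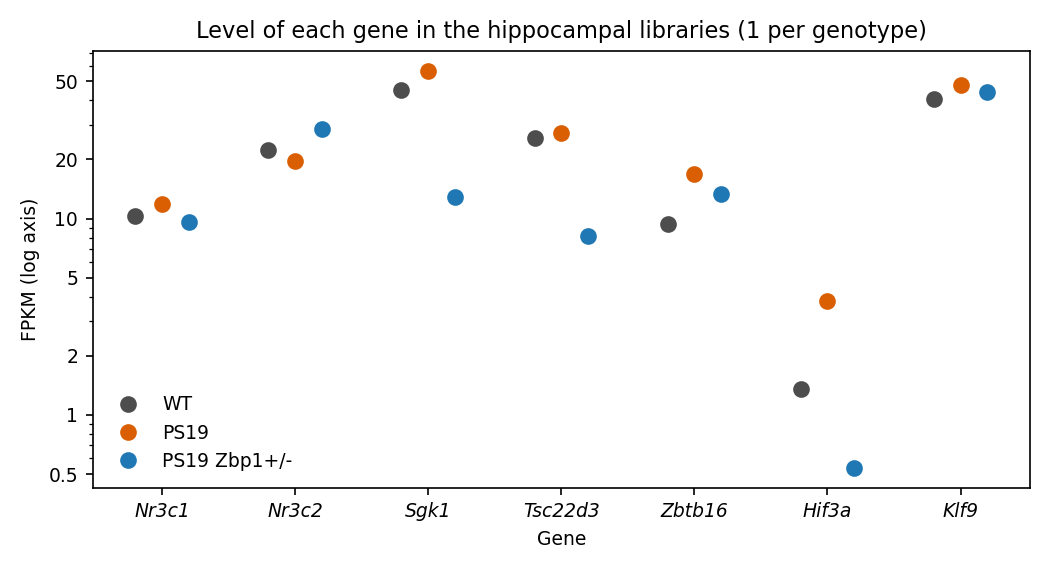
FPKM (log axis) of the 7 genes in the WT, PS19 and PS19 Zbp1+/- libraries, 1 point per library. Sgk1, Tsc22d3 and Hif3a were lowest in PS19 Zbp1+/-, at 12.9, 8.11 and 0.537, while Nr3c1, Nr3c2, Zbtb16 and Klf9 stayed within a narrower range.

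Between PS19 and WT, 1 of the 7 genes, Hif3a, was at least 2-fold higher on the log2(FPKM + 1) scale and none was at least 2-fold lower. Over all 12703 protein-coding genes with an FPKM of 1 or more in WT, in PS19 or in both, 2.2% were called higher and 0.291% lower. Of the 7 genes 6 lay above 0, where 46.3% of all genes did, and Nr3c2 was the exception. The median difference of the 7 was 0.23 log2 units, against -0.03 for all genes tested. Between PS19 Zbp1+/- and PS19, 3 of the 7, Sgk1, Tsc22d3 and Hif3a, were at least 2-fold lower, where 5.16% of 12772 genes were. None was called higher, where 2% of genes were, and the median was -0.32 against 0.04 for all genes. Between PS19 Zbp1+/- and WT, Sgk1 and Tsc22d3 were at least 2-fold lower, where 2.28% of 12436 genes were. None was called higher, where 1.07% of genes were. Scaling moved these backgrounds: of the genes called between PS19 Zbp1+/- and PS19, 27.9% were higher as deposited, 10.4% after rescaling to TPM and 14.6% by total reads, and against WT 32%, 18.5% and 17.3%. The comparisons share libraries, so their values are not independent of each other.

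Sgk1 encodes a kinase that regulates ion channels and transporters and is among the fastest genes to answer glucocorticoids. It lies on chromosome 10 from 21882184 to 21999903 on the plus strand (ENSMUSG00000019970). Its FPKM was 45 in the WT library, 56.7 in PS19 and 12.9 in PS19 Zbp1+/-, from 3806, 4805 and 998 reads. It was the most abundant of the 7 genes in WT and in PS19 and the fourth in PS19 Zbp1+/-. The PS19 library was 1.26-fold above WT (1.21 to 1.32). PS19 Zbp1+/- was 4.41-fold below PS19, a ratio of 0.227 (0.212 to 0.243), and 3.50-fold below WT, a ratio of 0.286 (0.266 to 0.307). On the log2(FPKM + 1) scale the differences were 0.33, -2.06 and -1.73 for PS19 minus WT, PS19 Zbp1+/- minus PS19 and PS19 Zbp1+/- minus WT. Counted from the lowest difference, Sgk1 ranked 97 of 12772 genes in the second of these and 71 of 12436 in the third.

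Tsc22d3, also named Gilz, encodes a leucine zipper protein that carries anti-inflammatory actions of glucocorticoids. The gene lies on chromosome X from 140539528 to 140600659 on the minus strand (ENSMUSG00000031431). It was nearly level between WT and PS19, at an FPKM of 25.8 from 1933 reads and 27.3 from 2051 reads, a ratio of 1.06 whose interval of 0.995 to 1.13 spans 1 under the deposited scaling. In PS19 Zbp1+/- it had an FPKM of 8.11 from 557 reads. That library was 3.37-fold below PS19 (ratio 0.297, 0.270 to 0.326) and 3.18-fold below WT (0.314, 0.285 to 0.345). The log2 differences were 0.08, -1.64 and -1.56 for PS19 minus WT, PS19 Zbp1+/- minus PS19 and PS19 Zbp1+/- minus WT. The first of these became 0.11 by total reads and 0.21 after rescaling to TPM. Tsc22d3 thus set PS19 Zbp1+/- apart from both other libraries, as Sgk1 did.

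Hif3a encodes a hypoxia-inducible factor subunit, forms of which restrain its relatives. It lies on chromosome 7 from 17031507 to 17062427 on the minus strand (ENSMUSG00000004328). It was the weakest of the 7 genes, with an FPKM of 1.35 from 156 reads in the WT library, 3.78 from 439 in PS19 and 0.537 from 57 in PS19 Zbp1+/-. PS19 was the highest library and PS19 Zbp1+/- the lowest. The read ratio was 2.81 for PS19 over WT (2.33 to 3.39), 0.142 for PS19 Zbp1+/- over PS19 (0.106 to 0.187) and 0.398 for PS19 Zbp1+/- over WT (0.289 to 0.543). The log2(FPKM + 1) differences of 1.03, -1.64 and -0.61 understate these ratios, as they do for weakly expressed genes. With a pseudocount of 0.1 they were 1.42, -2.61 and -1.18, so that Hif3a also passed 2-fold between PS19 Zbp1+/- and WT.

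Zbtb16, also named Plzf, encodes a zinc finger repressor used as a readout of corticosteroid action. It lies on chromosome 9 from 48654297 to 48836222 on the minus strand (ENSMUSG00000066687). Its FPKM was 9.41 in the WT library, 16.8 in PS19 and 13.3 in PS19 Zbp1+/-, from 858, 1534 and 1112 reads. WT was the lowest library and PS19 Zbp1+/- lay between the other two, a different order from Sgk1 and Tsc22d3. The ratio was 1.78 for PS19 over WT (1.64 to 1.94), 0.792 for PS19 Zbp1+/- over PS19 (0.732 to 0.856) and 1.41 for PS19 Zbp1+/- over WT (1.29 to 1.55). On the log2 scale it differed by 0.77, -0.32 and 0.46, below the threshold each time.

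Klf9, a Krüppel-like factor induced by corticosteroids and thyroid hormone in neurons, varied least among the 5 induced genes of the 7. It lies on chromosome 19 from 23141226 to 23166911 on the plus strand (ENSMUSG00000033863). Its FPKM was 40.6 in the WT library, 48.0 in PS19 and 44.1 in PS19 Zbp1+/-, from 2288, 2705 and 2277 reads. The ratio was 1.18 for PS19 over WT (1.12 to 1.25), 0.919 for PS19 Zbp1+/- over PS19 (0.869 to 0.973) and 1.08 for PS19 Zbp1+/- over WT (1.02 to 1.15). The last difference, 0.11 on the log2 scale, turned to -0.04 after rescaling to TPM or by total reads, so its direction is not settled.

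**Figure D2:**
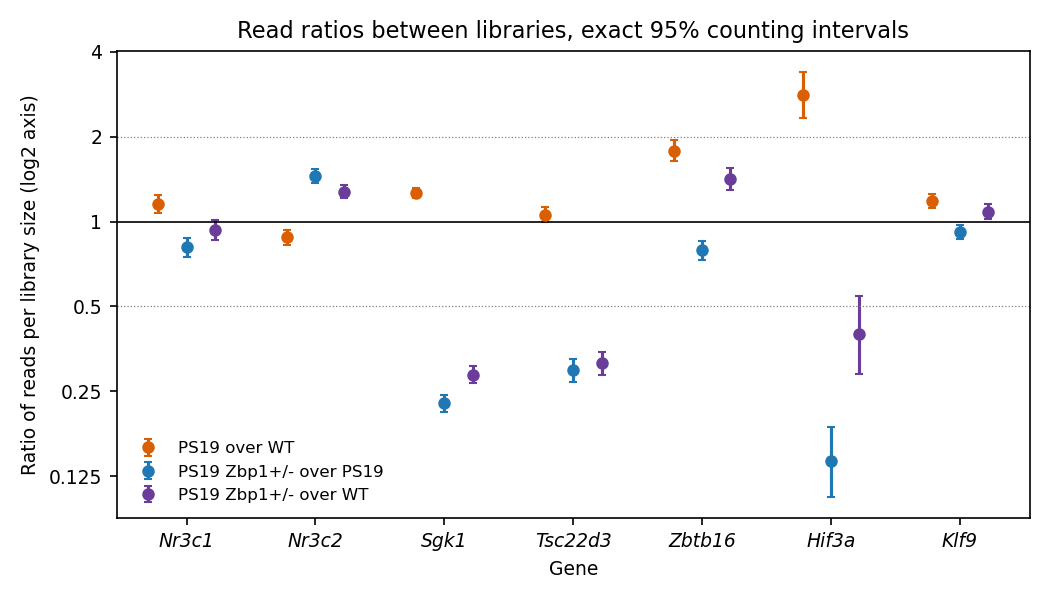
Ratios of reads per library size for the 7 genes in the comparisons named in the key, with exact 95% intervals for counting error and dotted lines at 2-fold. Both comparisons of PS19 Zbp1+/- put Sgk1 and Tsc22d3 below the lower line, while Nr3c1, Nr3c2 and Klf9 stayed between the lines throughout.

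The other genes of the pathway came from lists made with earlier results of these data known. Of 28 further glucocorticoid response genes, all entered the comparison of PS19 with WT, and 23 lay above 0, as did 46.3% of all genes. At least 2-fold higher were 3, as were 2.2% of all genes, and 0 were lower, as were 0.291%. The 3 were the cell cycle inhibitor Cdkn1a, with an FPKM of 2.72 in WT and 13.1 in PS19, the metallothionein Mt2 at 2.76 and 7.38, and the iron-binding acute phase protein Lcn2 at 0.243 and 1.5. Tgm2, a transglutaminase, had values of 1.85 and 3.84, a log2 difference of 0.76. The list median was 0.29. Cdkn1a is also a target of p53, and Mt2 and Lcn2 also answer inflammation.

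Between PS19 Zbp1+/- and PS19, 27 of the 28 could be compared, and 8 were at least 2-fold lower and 0 higher. Over all genes 5.16% were lower and 2% higher. The list median was -0.53, and 24 of 27 lay below 0, as did 46.3% of all genes. Cdkn1a had a log2 difference of -2.04, the arrestin-domain gene Arrdc2 of -1.59, the pyruvate dehydrogenase kinase Pdk4 of -1.52 and the metallothionein Mt1 of -1.42. Nfkbia, Sult1a1, Plekhf1 and Lcn2 completed the 8. Pdk4 had FPKM values of 6.74, 7.25 and 1.87 in WT, PS19 and PS19 Zbp1+/-, so that, as for Sgk1 and Tsc22d3, the PS19 Zbp1+/- library lay far below both others. It was the 1 gene of 27 in this list that was called lower against WT, with a difference of -1.43, where 2.28% of all genes were.

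Anxa1, an anti-inflammatory phospholipid-binding protein gene with 51, 36 and 3 reads, was left out by the filter on low values. The compared genes of the list that were not called ranged from Cebpd, a transcription factor of inflammation, at -0.97 to the enzyme gene Cdo1 at 0.21. Fkbp5, which encodes a receptor co-chaperone and was singled out after its values were seen, had FPKM values of 7.84, 8.18 and 7.17 in WT, PS19 and PS19 Zbp1+/-. Per library size, PS19 had 1.04 times the Fkbp5 reads of WT (0.966 to 1.13), and PS19 Zbp1+/- had 0.877 times those of PS19 (0.809 to 0.951). Per1, a clock gene known for glucocorticoid response elements, though its searched windows held no match, had values of 19.0, 24.3 and 21.5. Between PS19 Zbp1+/- and PS19 the read ratio of Per1 was 0.883, so that Klf9, Zbtb16, Fkbp5 and Per1 were also lower, with intervals below 1, but by less than 2-fold.

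The receptor's partners gave no call. All 17 chaperones and coregulators were compared, and 0 were called in each of the 3 comparisons. In PS19 minus WT the largest differences were those of the coactivators Ncoa3 at 0.47, Ep300 at 0.42 and Ncoa1 at 0.36, and of the p23 co-chaperone Ptges3 at -0.47. In PS19 Zbp1+/- minus PS19 they were those of the co-chaperone Stip1 at 0.86, the remodelling ATPase Smarca4 at 0.63, and the Hsp90 genes Hsp90ab1 at 0.50 and Hsp90aa1 at 0.46. The list median there, 0.12, turned to -0.16 after rescaling to TPM.

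Of 6 genes of steroid access and metabolism, 4 were compared and 0 were called in each comparison. Hsd11b1, whose product regenerates active corticosterone, had FPKM values of 4.53, 5.01 and 4.0 in WT, PS19 and PS19 Zbp1+/-. Hsd11b2, which inactivates the hormone in kidney, and Serpina6, its plasma carrier made in liver, had 0 reads in all 3 libraries. Abcb1a, an efflux pump of the blood-brain barrier that exports steroids, had values of 4.43, 7.85 and 4.53, highest in PS19. Srd5a1, a steroid reductase, stood at 2.73, 3.52 and 3.37, and H6pd, which supplies the cofactor of Hsd11b1, at 1.48, 1.94 and 2.58.

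Among 9 genes of corticotropin-releasing hormone and related peptides, 6 were compared between PS19 and WT. The vasopressin gene Avp was the 1 called higher, with 18 reads in the WT library, 55 in PS19 and 4 in PS19 Zbp1+/-, and it was also the 1 gene of this list called lower when PS19 Zbp1+/- was set against PS19. Over all genes 2.2% were called higher in PS19 than WT, and 5.16% lower in PS19 Zbp1+/- than PS19. The receptor gene Crhr1 had FPKM values of 6.55, 3.39 and 5.32, a log2 difference of -0.78 between PS19 and WT. The binding protein Crhbp had 15.9, 11.6 and 20.1, and Crh itself had 1.71, 1.18 and 2.58 from 39, 27 and 54 reads. These 3 genes were lowest in PS19, as Nr3c2 was. Crhr2 had values of 1.58, 0.882 and 0.432, and did not pass the filter on low values in the comparison of PS19 Zbp1+/- with PS19.

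Of 18 relatives of the 7 genes 16 were compared, and none was called between PS19 and WT. Klf4 was the 1 called lower between PS19 Zbp1+/- and PS19, with FPKM values of 3.31, 3.07 and 0.373, and Klf4 and Klf2 (13.9, 11.9 and 5.78) were called lower than in WT. Over all genes 5.16% were called lower against PS19 and 2.28% against WT. Klf4 and Klf2 encode factors known from endothelium. Sgk3, a kinase close to Sgk1, had values of 1.21, 1.52 and 0.481, a log2 difference of -0.77 between PS19 Zbp1+/- and PS19. Zbtb20, a relative of Zbtb16, had a log2 difference of 0.74 between PS19 and WT and of -0.98 when PS19 Zbp1+/- was set against PS19. Tsc22d4, Klf7 and Epas1 differed by 0.75, 0.58 and 0.54 between PS19 and WT. The 8 genes around the Sgk1 kinase, from its activator Pdpk1 to its substrates Ndrg1, Nedd4l and Foxo3, had 0 calls in each comparison. Ndrg1 had the largest difference between PS19 and WT, 0.41, and Rictor, a subunit of the activating kinase complex, between PS19 Zbp1+/- and PS19, -0.30.

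**Figure D3:**
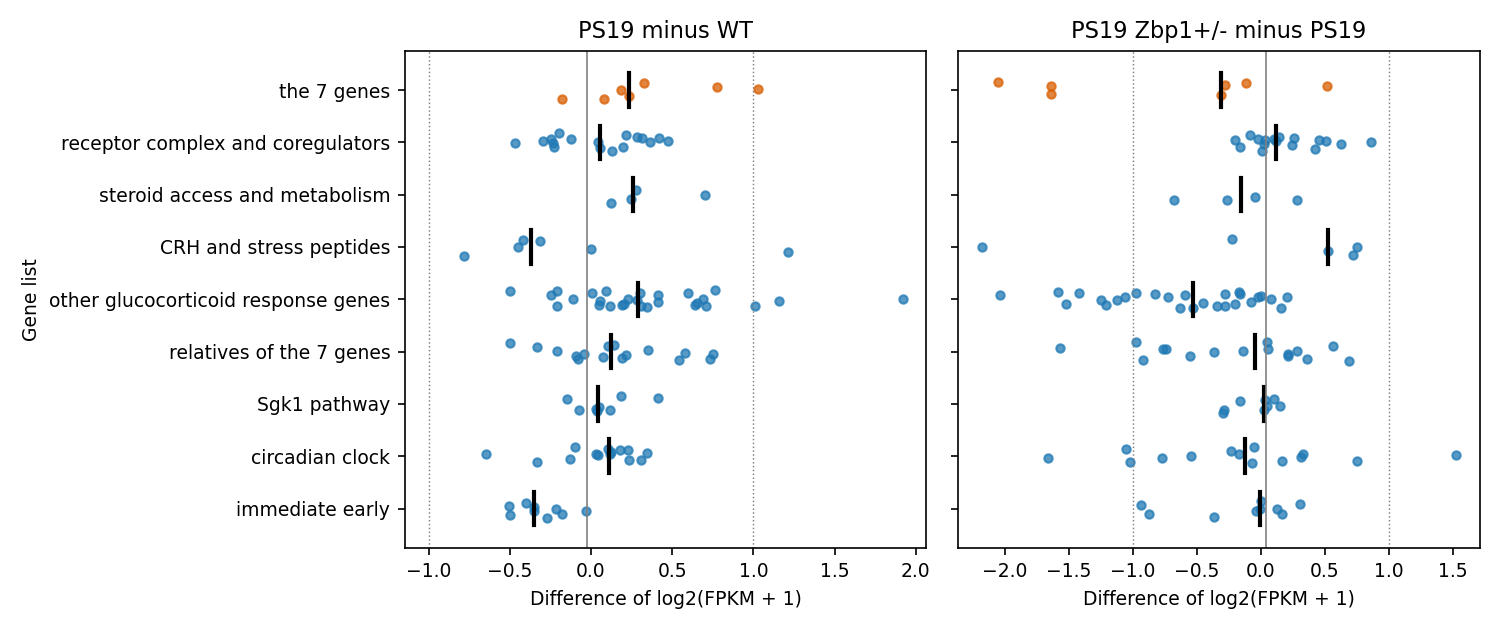
Difference of log2(FPKM + 1) for each compared gene by list, PS19 minus WT on the left and PS19 Zbp1+/- minus PS19 on the right. Black bars are list medians, the grey line the median of all genes and dotted lines 2-fold. The 7 genes and the other response genes spread to the left in the right panel, with medians of -0.32 and -0.53.

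Corticosterone follows the clock and handling, so both gene groups were read beside the 7 genes. Of 14 clock genes none was called between PS19 and WT, the largest differences being those of Npas2 at -0.65, Per1 at 0.34, Arntl at -0.33 and Ciart at 0.31. Between PS19 Zbp1+/- and PS19, Ciart at -1.66, Per3 at -1.06 and Nr1d2 at -1.02 were called lower and Npas2 at 1.52 was called higher. Over all genes 5.16% were called lower and 2% higher. Of 9 immediate early genes, which neuronal activity induces, all lay below 0 in PS19 minus WT, led by Egr3 at -0.51 and Junb at -0.50. Over all genes 46.3% lay above 0 there. None of the 9 was called between PS19 Zbp1+/- and PS19, where Fos stood at -0.93 and Npas4 at -0.87. Their read ratios were 0.482 and 0.466. In PS19 Zbp1+/- minus WT all 9 lay below 0. Npas4 at -1.09 was called lower than in WT, as were 2.28% of all genes, and Fos stood at -0.96. The part of the time of collection in the values of Sgk1, Tsc22d3 and Klf9 was not tested.

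Markers of other cell types moved with these genes as well. The summed FPKM of 10 oligodendrocyte markers was 922 in the WT library, 1649 in PS19 and 599 in PS19 Zbp1+/-. All 10 were called lower when PS19 Zbp1+/- was set against PS19, as were 5.16% of all genes. Mbp had FPKM values of 272, 484 and 185, and Mog of 28.3, 49.3 and 20.2. The ratio of the summed level was 0.363 for PS19 Zbp1+/- over PS19 and 0.650 over WT, against 0.227 and 0.286 for Sgk1. None of the 10 markers was called lower than in WT. Between PS19 and WT the summed ratio was 1.79, while Sgk1 and Tsc22d3 stood at 1.26 and 1.06.

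The 7 choroid plexus markers were far lower in PS19 Zbp1+/-, with a summed FPKM of 3400 in the WT library, 2161 in PS19 and 25.5 in PS19 Zbp1+/-. All 7 were called lower in PS19 Zbp1+/- in both of its comparisons, as were 5.16% of all genes against PS19 and 2.28% against WT. Ttr had FPKM values of 3036, 1842 and 7.05, Folr1 of 18.2, 10.9 and 0.193, and Clic6 of 23.9, 19.97 and 0.743. Ttr made most of the plexus sum in WT and in PS19. In PS19 minus WT, 6 of the 7 plexus markers lay below 0, Otx2 lay above at 0.04, and none was called. The part of either cell type in the low Sgk1 and Tsc22d3 of PS19 Zbp1+/- was not tested.

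The other marker sums were not below WT in PS19 Zbp1+/-, but single genes weighed heavily in some of them. Endothelial markers summed to 59.2, 62.7 and 69.4 in WT, PS19 and PS19 Zbp1+/-, with Cldn5 at 22.4, 19.1 and 38.1, Pecam1 at 2.90, 3.05 and 2.47, and Flt1 at 3.38, 5.36 and 4.76. Cldn5 was the 1 endothelial marker above 0 in PS19 Zbp1+/- minus PS19. The other 6 lay below 0, as Sgk1 and Tsc22d3 did, and none was called. Against WT, 4 of the 7 endothelial markers lay below 0 in PS19 Zbp1+/- and 3 above, so their sum above WT rested on Cldn5. Mural cell markers summed to 70.4, 79.6 and 79.6, with Pdgfrb at 3.18, 4.64 and 5.94, Rgs5 at 18.5, 24.3 and 19.1, and Vtn at 41.1, 43.4 and 47.1. Astrocyte markers summed to 615, 1504 and 720 and microglia markers to 76.5, 192 and 90.3, both highest in PS19, as Zbtb16 and Hif3a were. Gfap, at 98.4, 768 and 112, made a large part of the astrocyte sum in PS19, and Aldoc, at 202, 239 and 295, was highest in PS19 Zbp1+/-. In PS19 Zbp1+/- minus WT, 5 of the 8 astrocyte markers lay above 0 and 3 below. Of the 6 microglia markers, 3 lay above 0 and 3 below. Among the astrocyte markers Aqp4, the astrocyte water channel, had 22.2, 62.2 and 17.0, and the glutamate transporters Slc1a3 and Slc1a2 had 57.8, 84.4 and 63.1, and 140, 210 and 164. Of the microglial receptors, Csf1r had 17.6, 48.7 and 23.0 and Cx3cr1 had 4.08, 22.1 and 10.8, called higher than WT in PS19 Zbp1+/- too, whereas P2ry12 had 11.2, 10.1 and 8.66 and was highest in WT. No marker of these lists was at 0 in any library. In PS19 Zbp1+/- Hif3a stood at 0.398 of WT, where the astrocyte and microglia sums stood at 1.17 and 1.18 of WT. The part of glia in the values of the 7 genes was not tested.

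Markers of hippocampal subfields differed in both directions in PS19 Zbp1+/-. Fibcd1, a marker of CA1, had FPKM values of 37.0, 27.0 and 111 in WT, PS19 and PS19 Zbp1+/- and was called higher in both comparisons of that library, with 4.12 times the reads of PS19 per library size. Pcp4 (14.5, 14.2 and 4.68) and Dsp (3.86, 4.13 and 1.28) were called lower in both, and Prox1, a factor of dentate granule cells, had 8.76, 9.51 and 5.20. The other markers of this list were not called, Wfs1 at 38.8, 27.1 and 28.0 and Amigo2 at 11.9, 11.6 and 13.8 among them. Of the neuron markers, Rbfox3 had 34.7, 31.9 and 42.7, Snap25 had 234, 180 and 197, and Syt1 had 132, 125.4 and 172. The part of subfield composition in the Sgk1 and Tsc22d3 values was not tested.

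**Figure D4:**
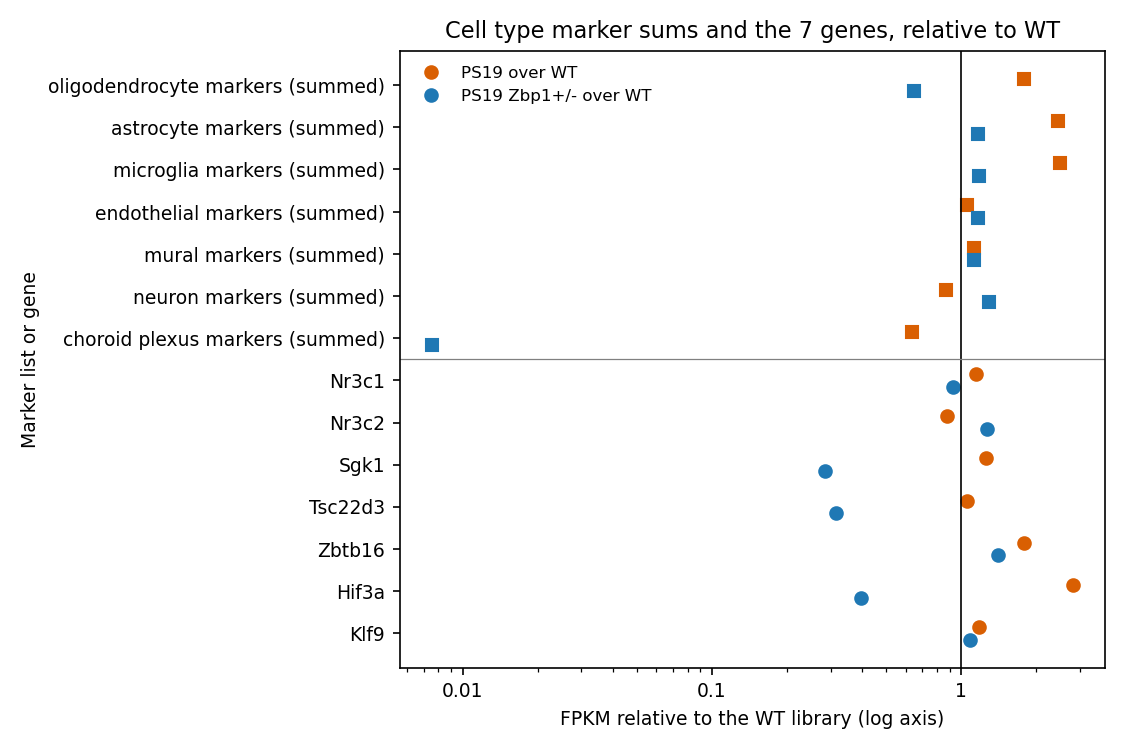
FPKM relative to WT (log axis) for summed cell type markers (squares) and the 7 genes (circles), PS19 in orange and PS19 Zbp1+/- in blue. In PS19 Zbp1+/- the plexus sum lay far below WT, oligodendrocyte markers at 0.650 of WT, and Sgk1 and Tsc22d3 at 0.286 and 0.314.

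Genes of most similar pattern were sought by the distance between profiles of log2(FPKM + 1), each centred on its mean over the 3 libraries, among 12267 protein-coding genes with a mean FPKM of at least 1. With 3 libraries such likeness is weak. For Nr3c1, Nr3c2 and Klf9 it did not single out genes, since 560, 527 and 577 genes lay within a distance of 0.1. For Sgk1 there was 1 gene so near, Foxj1, a factor of motile ciliated cells, with FPKM values of 9.37, 11.8 and 2.34 in WT, PS19 and PS19 Zbp1+/- at a distance of 0.086. The carbonic anhydrase Car14 and the growth factor gene Bmp6 followed at 0.13 and 0.16. For Tsc22d3, 6 genes were so near, led by Arl4d (13.9, 14.7 and 4.02), Cox7a1 and Krt8. Hif3a had 4, led by the immunoproteasome gene Psmb8 (1.17, 3.47 and 0.369), the oligodendrocyte claudin Cldn11 (68.0, 148 and 43.4) and the cytokine gene Il33 (20.5, 45.9 and 12.9). Zbtb16 had 22, led by Atp1b2, a sodium pump subunit of astrocytes (92.5, 159 and 128), Dst and Nkain1. The nearest to Nr3c2 were Grm5, Lgi1 and Evl, to Nr3c1 Btd, Tgs1 and Dhx33, and to Klf9 Ttll5, Vav2 and Itsn1.

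The counting of reads bears on some of these values. Nr3c2 overlaps Gm10649, an RNA gene on the opposite strand with an FPKM of 0.560, 0.802 and 0.610 in WT, PS19 and PS19 Zbp1+/-, and whether counting used strand is not given in the sources used here. Hif3a overlaps 4833404L02Rik, listed at 0, 0.127 and 0, and Klf9 holds Mir1192. A stretch of about 222 bases in Sgk1 transcripts resembled transcripts of Fam49a, Zfp780b and 4 predicted genes at 90% identity or more. Fam49a had FPKM values of 15.7, 13.1 and 15.4 and did not follow Sgk1. No other of the 7 genes had a match of at least 200 bases at that identity.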

How the data were processed

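RNA-seq was made from hippocampus of 3 genotypes, 1 library each, with TRIzol extraction and an NEB Next Ultra kit, per the labels' protocols. Trim Galore 0.6.5, STAR 2.5.3a, featureCounts 2.0.4 and the build mm39 are named, per the submitters' processing notes, with no role or order. Gene positions in the table equal those of GENCODE M21 (GRCm38) for 98.3% of 54409 genes found there and are given as in the table. The authors deposited 1 table of FPKM values, and all its sample columns were used. FPKM times gene length was a whole multiple of 1 step, within 0.01 read or 1e-06 of the count, for 100% of values, which gave whole reads.

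Differences were taken on log2(FPKM + 1). A gene was called at 1 log2 unit or more, among protein-coding genes with an FPKM of 1 or more in at least one of the libraries being compared. Read ratios used library sizes implied by the steps and exact (Clopper-Pearson) 95% intervals. Named genes were the 7 genes, up to 4 with the largest absolute difference per pathway list in PS19 minus WT and in PS19 Zbp1+/- minus PS19, the first 3 of each marker list, and the 3 of nearest profile. One marker gene that this rule names is not reported here. Genes named outside this rule were picked with their values in view. The 7 genes and the lists were chosen with earlier results of these data known. Alternatives were 9 planned and 1 added after seeing the data. Read recovery and calls were tested on simulated data. Copies were sought with BLAST 2.17.0. Scripts ran under Python 3.11.15 with scipy 1.17.1, pandas 2.3.3, numpy 2.4.6 and matplotlib 3.10.9.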

Additional observations from a re-analysis of the deposited data

How the results depend on the processing

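Among the alternatives tried, calls on the 7 genes changed with the threshold, and Hif3a joined Sgk1 and Tsc22d3 as lower in PS19 Zbp1+/- than WT, giving 3 genes, with a pseudocount of 0.1, after TPM, at 1.5-fold and for read ratios. Over all genes, 543 of 12436, 913 of 14401, 886 of 12436 and 594 of 12436 were lower in these settings. At 1.5-fold, Zbtb16 joined Hif3a, which gave 2 genes higher in PS19 than WT, where 806 of 12703 genes were. At 4-fold, 0 of the 7 differed between PS19 and WT, where 37 of 12703 genes were higher and 2 lower. Sgk1 was the 1 of the 7 that was 4-fold lower between PS19 Zbp1+/- and PS19, where 104 of 12772 genes were. Between PS19 Zbp1+/- and WT 0 of the 7 were 4-fold lower, where 53 of 12436 genes were. The called differences of Sgk1, Tsc22d3 and Hif3a kept their direction under every pseudocount and scaling, and 2 of 105 recomputed differences changed sign, both of Klf9 in PS19 Zbp1+/- minus WT. Of 384 recomputed list medians 30 changed sign, none of a median past 2-fold.

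The counts over all genes moved more. Higher and lower genes numbered 280 and 37 for PS19 against WT. They were 541 and 101 with a pseudocount of 0.1, 82 and 20 with a mean FPKM of at least 5, 774 and 109 after TPM, 514 and 176 over every biotype, 806 and 344 at 1.5-fold, 37 and 2 at 4-fold, and 573 and 122 for ratios of reads, each raised to 3 or more. For PS19 Zbp1+/- against PS19, 255 and 659 became 430 and 1184 with a pseudocount of 0.1, 233 and 2008 after TPM, 147 and 858 by total reads, 528 and 1041 over every biotype, 1197 and 1544 at 1.5-fold, 10 and 104 at 4-fold, and 464 and 1232 for read ratios. With a mean FPKM of at least 5, 234 were lower. For PS19 Zbp1+/- against WT, 133 and 283 became 290 and 543, 81 and 103 (mean FPKM of at least 5), 207 and 913 (TPM), 78 and 374 (total reads), 422 and 588 (every biotype), 834 and 886 (1.5-fold), 7 and 53 (4-fold), and 325 and 594 (read ratios). The mean filter tests fewer genes, every biotype tests more, and a changed threshold moves the counts by itself. TPM values are larger than FPKM here while the filter and pseudocount stayed at 1. For PS19 against WT, 14770 genes were therefore tested after TPM in place of 12703, so the TPM counts do not show scaling alone. The cause of the remaining moves was not tested.

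Between PS19 Zbp1+/- and PS19, the median over all genes was 0.04 as deposited, -0.25 after TPM and -0.12 by total reads, and the share of higher genes among those called was 27.9%, 10.4% and 14.6%. Against WT the median went from 0.01 to -0.15 and -0.13, and the share from 32% to 18.5% and 17.3%. TPM also moved the median of PS19 minus WT from -0.03 to 0.11. No paired analysis was possible because each genotype has 1 library. No library could be left out for the same reason. Depth limits the genes with few reads in PS19 Zbp1+/-, among them Hif3a with 57, Klf4 with 18, Lcn2 with 6 and Avp with 4.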
